A study of Caenorhabditis elegans with 6 samples.

Results

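The mitochondrial ribosomal protein genes of Caenorhabditis elegans were taken as every row of the count tables whose symbol begins with mrpl, for the large subunit, or mrps, for the small subunit. There were 66 such genes among 46748 gene rows, 39 of the large and 27 of the small subunit. Of these, 64 had enough counts to be tested, among 11955 tested genes in all, and the large subunit genes mrpl-35 and mrpl-55 fell below that limit.

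RNA sequencing compared 3 libraries of anchor cells with 3 libraries of whole-body cells. The anchor cell is the uterine cell that invades through basement membrane to link the uterus with the vulva. Both groups were wild type and came from mid-L3 larvae grown at 20 °C, at the time when the vulval precursor P6.p had become 2 cells. Both were also prepared alike, with SDS and DTT to open the cuticle, pronase E at 15 mg/mL, mechanical disruption and a 5 μm filter. From each sample 8 to 10 ng of RNA was extracted and amplified into a library. No source used here gives the method that isolated anchor cells. Nothing in the labels says that libraries of a group came from separate cultures, so p-values measure the spread between these libraries, which may be technical.

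Mitochondria keep a small genome that encodes a few subunits of the respiratory chain together with the ribosomal RNAs and transfer RNAs needed to make them. The proteins of the mitochondrial ribosome are all encoded in the nucleus, made in the cytosol and imported. Some have counterparts in bacterial ribosomes, and others are found only in mitochondria. In C. elegans, lowering mrps-5 or other genes of this group is known to extend lifespan and to induce the mitochondrial unfolded protein response.

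Libraries held 23279623 to 37501816 counts on genes. Levels are given in CPM, the counts of a gene after each library is brought to a common total, with totals scaled between libraries by edgeR's TMM method. The labels were checked against marker lists for each cell type. Of 10 anchor cell markers 7 rose, with a summed level of 1434 to 3244 CPM in anchor cell libraries against 402 to 647 CPM in whole-body libraries. Of 6 body muscle markers 2 fell, and their sum was 3384 to 3819 against 9481 to 13848 CPM. Of 6 germ line markers 1 fell, and their sum was 17.9 to 26.2 against 174 to 242 CPM. Of 6 neuronal markers only 1 rose, unc-119, at 1744 ± 1099 against 3.31 ± 1.35 CPM (SD, n = 3 each). The neuronal sum was 2190 ± 1071 against 189 ± 41.7 CPM (SD, n = 3 each), most of the former from unc-119, so it does not describe the neuronal markers as a set. None of the intestinal or epidermal markers passed the test. Genes of the mitochondrial genome took 22.9% to 48.1% of the counts of anchor cell libraries and 4.68% to 7.17% of those of whole-body libraries, with anchor cell replicate 1 the highest. The part of these differences in the results below was not tested. In bulk RNA, fewer cells of a type and less RNA per cell cannot be told apart.

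No gene of the mitochondrial ribosome passed the test between anchor cells and whole-body cells in either direction. With edgeR's quasi-likelihood test and a Benjamini-Hochberg adjusted p under 0.05, 0 of 64 rose and 0 of 64 fell, while over all tested genes 2.01% rose and 1.05% fell. Summed over the 66 genes, the level was 317, 413 and 401 CPM in the anchor cell replicates, here and below in the order 1, 2 and 3, and 310, 308 and 379 CPM in the whole-body replicates, in the same order. The groups overlapped, and the sum was 377 ± 52.5 CPM against 332 ± 40.3 CPM (SD, n = 3 each), a ratio of 1.13. The median log2 fold change of the 64 genes was -0.02, with 31 above and 33 below 0, beside a median of -0.12 over all tested genes. With libraries scaled by their totals alone, these medians were -0.84 and -0.94.

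The anchor cell libraries differed far more among themselves than the whole-body libraries did. For each gene the highest of 3 libraries was divided by the lowest, after adding 0.5 CPM to each. The median of this fold range was 4.46 in anchor cells and 1.51 in whole-body cells. It was over 10-fold for 15 of 64 genes (23.4%) in anchor cells and for 0 of 64 in whole-body cells. The SD of log2 levels was larger in anchor cells for 56 of 64 genes (87.5%).

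That wider spread was shared by genes outside the group. Over all 11955 tested genes the median fold range was 3.48 in anchor cells and 1.70 in whole-body cells, 14.9% and 1.01% of genes ranged over 10-fold, and 78.7% had the larger SD in anchor cells. Over the 3425 tested genes at 1.68 to 7.20 CPM in whole-body cells, the middle range of the mitochondrial ribosomal protein genes, the medians were 4.50 and 1.89, and 20.8% and 1.40% ranged over 10-fold.

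**Figure D1:**
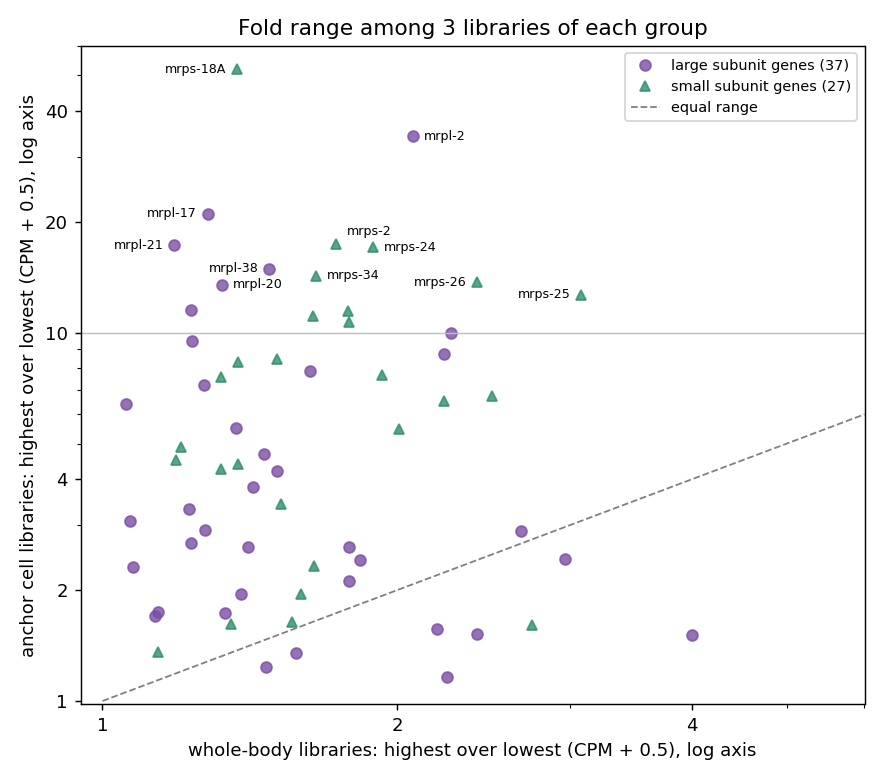
Each point is 1 of the 64 tested genes, placed by its fold range among the 3 whole-body libraries on the horizontal log axis and among the 3 anchor cell libraries on the vertical log axis, both computed on CPM + 0.5. The dashed line marks equal range, and the grey line marks 10-fold, which 15 genes passed in anchor cells and none in whole-body cells.

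The gene with the widest range was mrps-18A (chromosome III, 8330893 to 8331919, minus strand, 5 exons), whose mammalian homolog sits in the large subunit despite its name. It stood at 3.30, 27.9 and 0.0482 CPM in anchor cells and at 5.04, 5.52 and 7.10 CPM in whole-body cells. Anchor cell replicate 2 was above every whole-body library and replicate 3 below them all, a 51.9-fold range against 1.37-fold. Of its exon bases, 24% overlap exons of iglr-2 on the same strand, so its reads may be shared. Next came mrpl-2 (chromosome IV, 773237 to 776655, plus strand, 6 exons), a core protein near the site of peptide bond formation. Its levels were 0.0796, 19.3 and 9.97 CPM in anchor cells and 4.41, 6.15 and 9.68 CPM in whole-body cells. Here replicate 1 was the low one, with a 34.1-fold range.

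Other genes were high in 1 anchor cell library alone. The gene mrpl-21 had 8.12 CPM in anchor cell replicate 1 and 0 counts in replicates 2 and 3, beside 0.969, 0.740 and 0.778 CPM in whole-body cells. The gene mrps-2 had 1.11, 0.870 and 23.3 CPM in anchor cells and 9.54, 6.50 and 5.30 CPM in whole-body cells, so that replicate 3 lay above and replicates 1 and 2 below the other group. The gene mrps-5 had 18.5, 3.17 and 1.73 CPM in anchor cells and 8.09, 7.93 and 5.20 CPM in whole-body cells, with replicate 1 above and the other two below. DESeq2 set 6 genes aside as holding an outlying count, mrpl-16, mrpl-20, mrpl-21, mrps-2, mrps-18B and mrps-34. That was 9.09% of the 66, beside 3.15% of the genes that edgeR tested.

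The extremes were divided among the 3 anchor cell libraries. Anchor cell replicates 1, 2 and 3 were the highest of the group for 20, 21 and 23 of the 64 genes and the lowest for 20, 22 and 22. They stood over 4-fold above both others for 6, 3 and 6 genes, and over 4-fold below both others for 1, 3 and 8 genes. In whole-body cells no gene did either. Counts of 0 were found for 3, 5 and 9 of the 66 genes in anchor cell replicates 1, 2 and 3 and for none in whole-body cells. Fewer genes of any kind were detected in anchor cell libraries. Over all gene rows, 16990, 11508 and 11073 had counts in anchor cell replicates 1, 2 and 3. In whole-body replicates 1, 2 and 3 the numbers were 21246, 22216 and 17185. The 4-fold extremes were not counted over all tested genes.

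Low counts were more common in anchor cells. Under 10 counts were found for 9, 19 and 25 of the 66 genes in anchor cell replicates 1, 2 and 3 and for 2, 0 and 3 in the whole-body replicates. The share of all genes under 10 counts was not taken, so these numbers do not set the group apart from other genes. Whole-body replicate 3 had the smallest total of raw counts, but TMM-scaled totals were smaller in every anchor cell library than in any whole-body library. On that scale 3 counts corresponded to 0.119, 0.153 and 0.144 CPM in anchor cell replicates 1, 2 and 3. In the whole-body replicates they corresponded to 0.0727, 0.0483 and 0.106 CPM. The part of depth in the low counts was not tested.

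The order of the genes by level was also less alike between anchor cell libraries. Across the 64 genes, which are not independent replicates, Pearson's r of log2 levels was 0.31 to 0.48 between anchor cell libraries. Whole-body libraries gave 0.85 to 0.96, and pairs of 1 library from each group 0.45 to 0.66. Over all tested genes the same values were 0.80 to 0.84, 0.91 to 0.97 and 0.73 to 0.82. Those were not matched to the group for level or for the span of levels, on which r depends. They therefore do not show whether these genes were less alike than others at their level. Genes of a library share its depth and amplification.

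**Figure D2:**
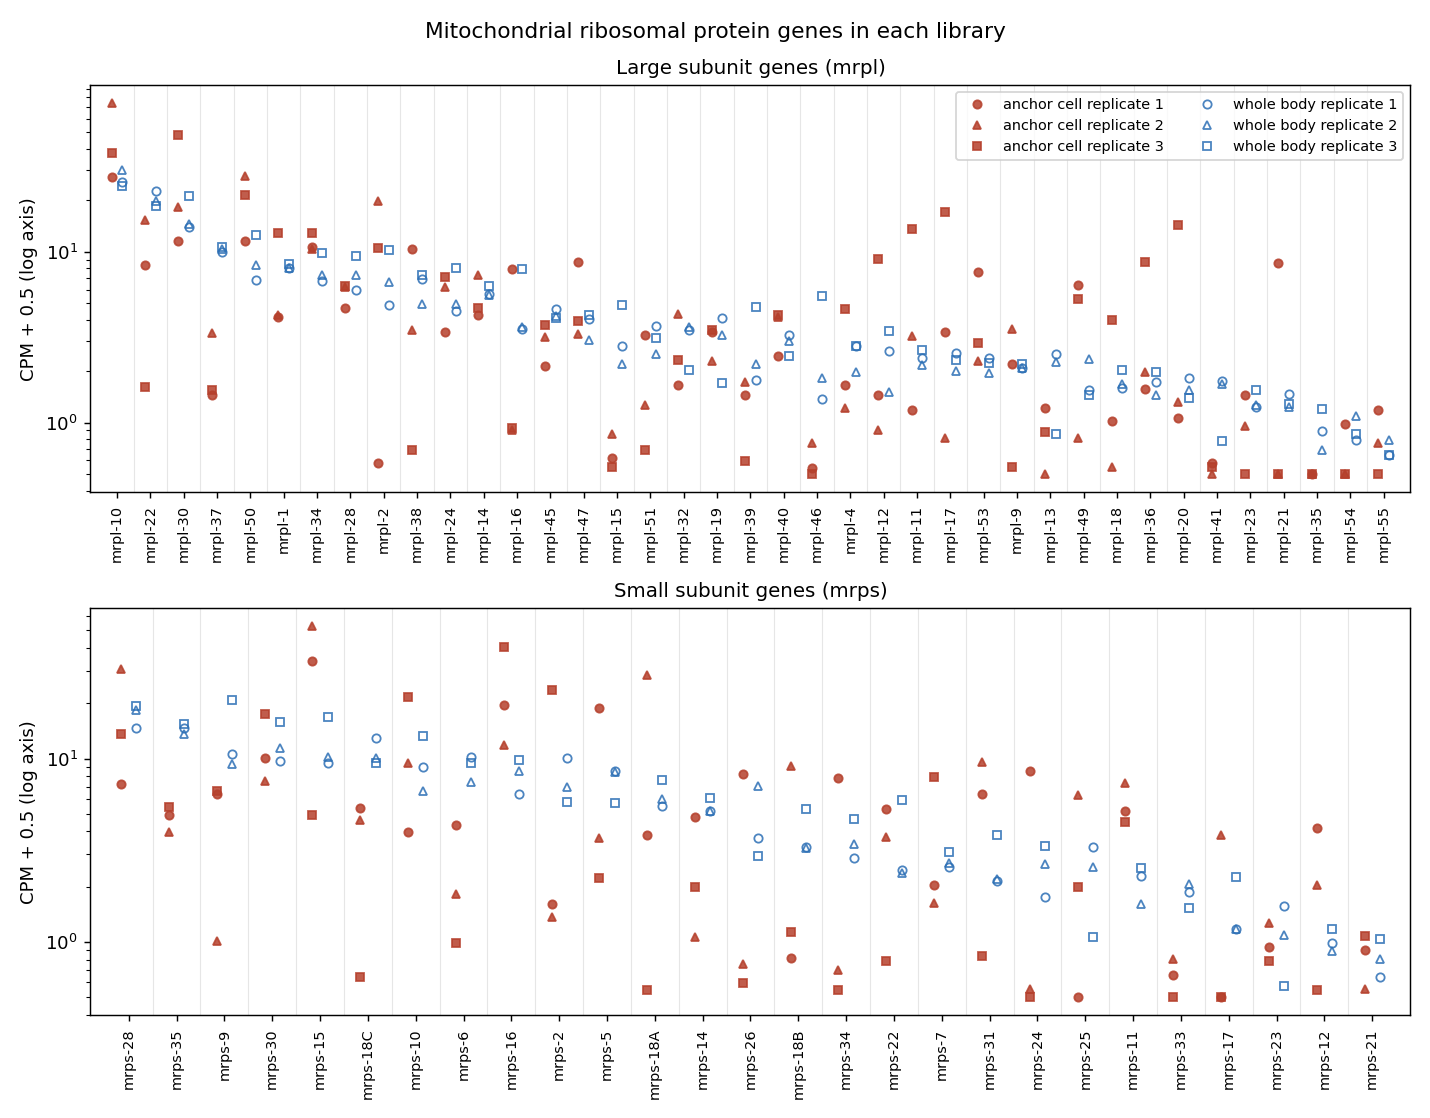
All 66 genes are plotted by library, in order of their whole-body mean, with CPM + 0.5 on a log axis, filled red symbols for anchor cell and open blue symbols for whole-body replicates 1 (circle), 2 (triangle) and 3 (square). The blue symbols of a gene lie close together, while the red ones scatter above and below them, and which red symbol is highest changes from gene to gene.

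In whole-body cells the most abundant transcript per length was mrpl-10 (chromosome II, 8277578 to 8278515, minus strand, 4 exons), the base of the stalk to which translation factors bind. Its level was 32.8 ± 3.70 CPM per kilobase of exon (SD, n = 3), followed by mrps-28 at 26.5 ± 3.90, mrpl-22 at 23.3 ± 2.60 and mrpl-30 at 21.5 ± 5.37. For each neighbouring pair in this order the ranges of mean ± SD overlapped. At the other end of the tested genes, mrps-21 had 0.786 ± 0.465 CPM per kilobase, 41.8-fold below mrpl-10. The median over 63 tested genes with a known length was 3.56 CPM per kilobase in whole-body cells and 3.77 in anchor cells.

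In anchor cells mrpl-10 again came first, at 57.4 ± 30.5 CPM per kilobase, then mrps-16 at 38.7 ± 24.5 and mrpl-30 at 34.3 ± 26.3, all within each other's SDs. The 3 leading genes of a library made up 25.2%, 37.7% and 31.3% of the group's counts in anchor cell replicates 1, 2 and 3, led by mrps-15, mrpl-10 and mrpl-30. In whole-body cells they made up 19.9%, 21.7% and 17.1%, each time led by mrpl-10. Among tested genes, the lowest means per kilobase over both groups were those of mrpl-54 (0.712), mrpl-41 (0.764), mrps-21 (0.805) and mrpl-46 (0.98).

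Even before adjustment for the number of genes tested, few mitochondrial ribosomal protein genes passed the threshold. At an unadjusted p under 0.05, 1 of 64 genes was higher and 5 of 64 were lower in anchor cells, beside 11.2% and 13.2% of all tested genes. All 3 anchor cell libraries lay above all 3 whole-body libraries for 3 genes, mrpl-34, mrps-11 and mrps-16, and below them for 13, beside 12.4% and 23.2% of all tested genes. Among the 64 tested mitochondrial ribosomal protein genes the shares were 4.69% and 20.3%, the first below its background and the second near it.

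The smallest unadjusted p, 0.0175, belonged to mrpl-37 (chromosome II, 13568077 to 13575068, minus strand, 8 exons), a large subunit protein with no bacterial counterpart. It had 0.956, 2.86 and 1.06 CPM in anchor cells and 9.40, 9.86 and 10.1 CPM in the whole-body replicates. Every anchor cell library lay below every whole-body library, with a log2 fold change of -2.59 ± 0.92 (SE) and an edgeR adjusted p of 0.113. DESeq2 gave a log2 fold change of -2.59 and called it, with an adjusted p of 0.00823.

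The small subunit gene mrps-35 (chromosome V, 18981306 to 18985865, plus strand, 4 exons), also specific to mitochondria, showed the same pattern. Its levels were 4.42, 3.48 and 4.91 CPM in anchor cells and 14.2, 13.1 and 15.0 CPM in whole-body cells, so that all 3 anchor cell libraries were low. The log2 fold change was -1.72 ± 0.70 (edgeR adjusted p = 0.162, DESeq2 adjusted p = 0.0380). Of its exon bases, 11.1% overlap exons of sws-1 on the other strand, and no source used here says whether counting used the strand.

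The 3 other genes lower at an unadjusted p under 0.05 rested on few counts in anchor cells. For mrpl-15, whose bacterial counterpart acts in large subunit assembly, the levels were 0.119, 0.358 and 0.0482 CPM against 2.30, 1.71 and 4.35 CPM, a log2 fold change of -3.97 ± 1.47 (edgeR adjusted p = 0.127). For mrpl-46, found only in mitochondria, they were 0.0398, 0.256 and 0 CPM against 0.872, 1.32 and 4.98 CPM, -4.57 ± 1.78 (edgeR adjusted p = 0.148). For mrpl-41, also found only in mitochondria, the anchor cell libraries held 3 counts in all and the whole-body libraries 134. That was a 22.2-fold lower level, with an exact 95% counting interval of 7.43 to 109 that leaves out the spread between libraries. The edgeR log2 fold change of mrpl-41 was -4.27 ± 1.58 (edgeR adjusted p = 0.128), with a wider 95% interval of -7.77 to -0.76. In none of these genes did the groups overlap. A count of 0 in all 3 anchor cell libraries was found for mrpl-35 alone, which had 48 counts in whole-body cells. Against a floor of 3 counts over the anchor cell group, its level was 7.95-fold lower. The exact 95% counting interval reached down to 6.22-fold lower, and it too leaves out the spread between libraries.

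The gene higher at an unadjusted p under 0.05 was mrps-16 (chromosome II, 5474373 to 5475420, plus strand, 4 exons), whose bacterial counterpart acts in small subunit assembly. It had 19.1, 11.4 and 40.2 CPM in anchor cells and 5.93, 8.09 and 9.30 CPM in whole-body cells. All 3 anchor cell libraries lay above the whole-body libraries, with a log2 fold change of 1.60 ± 0.68 and an edgeR adjusted p of 0.178. Of its exon bases, 27.8% overlap exons of ilcr-2 on the same strand. The other two genes without overlap were mrps-11, with 4.70, 6.85 and 4 CPM against 1.79, 1.11 and 2.01 CPM, and mrpl-34, with 10.2, 9.92 and 12.4 CPM against 6.22, 6.79 and 9.37 CPM. Their log2 fold changes were 1.66 ± 1.00 and 0.54 ± 0.69, with edgeR adjusted p of 0.354 and 0.695. Exons on the other strand overlap 4.06% of the exon bases of mrps-11, from inx-11, and 11.3% of those of mrpl-34, from aha-1. In bacteria the counterpart of mrps-11 lines the platform of the small subunit.

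The proteins of the decoding centre, the factor stalk and the catalytic core, picked for their roles whatever their values, gave no call, and their fold range in anchor cells ran from 2.69 for mrpl-10 to 34.1 for mrpl-2. The stalk gene mrpl-10 had 27, 73.3 and 37.1 CPM in anchor cells and 25.2, 29.5 and 23.9 CPM in whole-body cells, 0.81 ± 0.52 on the log2 scale. Its stalk partner mrpl-12 had 0.956, 0.409 and 8.57 CPM against 2.11, 1.01 and 2.93 CPM, and mrpl-11, which lies at the stalk base, had 0.677, 2.71 and 13.1 CPM against 1.89, 1.66 and 2.16 CPM. In both of these genes anchor cell replicate 3 held the highest value of all 6 libraries. For mrps-12, at the decoding centre, the levels were 3.66, 1.53 and 0.0482 CPM against 0.484, 0.386 and 0.672 CPM, and for mrps-7, near the messenger RNA exit, 1.55, 1.13 and 7.46 CPM against 2.06, 2.20 and 2.58 CPM. The highest anchor cell replicate was the first for mrps-12 and the third for mrps-7.

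The largest other positive log2 fold changes were led by 1 or 2 anchor cell libraries. The gene mrpl-20, whose bacterial counterpart acts early in large subunit assembly, had 0.557, 0.819 and 13.8 CPM in anchor cells and 1.33, 1.05 and 0.884 CPM in whole-body cells (log2 fold change 2.21 ± 1.40, edgeR adjusted p = 0.380). The gene mrpl-17, whose bacterial counterpart lies at the exit of the peptide tunnel, had 2.87, 0.307 and 16.5 CPM against 2.06, 1.5 and 1.84 CPM (1.86 ± 1.3, adjusted p = 0.432). For both, anchor cell replicate 2 and for mrpl-20 also replicate 1 lay below the whole-body values. On the lower side, mrps-33 stood at -3.06 ± 1.57 (adjusted p = 0.272) and mrps-6 at -2.18 ± 1.02 (adjusted p = 0.224), followed by mrpl-13 at -1.89 and mrps-18C at -1.76. In bacteria the counterparts of mrps-6 and, going by its symbol, mrps-18C bind each other in the small subunit. These genes had 3.82, 1.33 and 0.482 CPM and 4.86, 4.09 and 0.144 CPM in anchor cells, below all whole-body libraries at 6.95 to 9.76 and 8.94 to 12.5 CPM. Another row, T14B4.2, has the current name mrps-18.C and stood on the higher side, at 0.63 ± 0.60. Which of these rows holds the counterpart was not settled here.

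**Figure D3:**
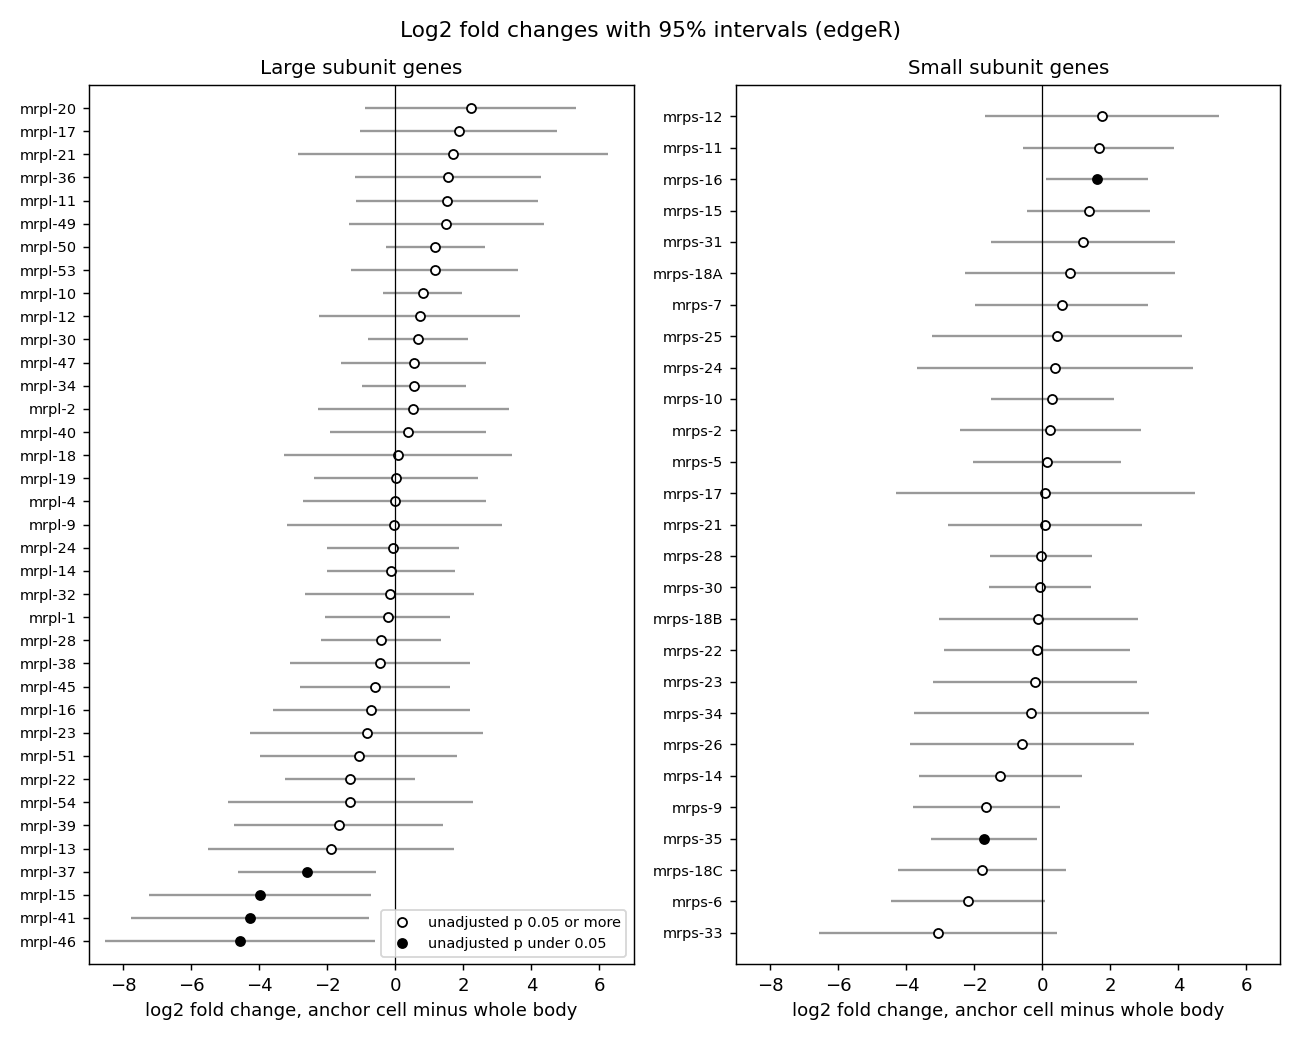
Log2 fold changes of the 64 tested genes are shown as points with 95% intervals from edgeR, the large subunit at left and the small subunit at right, with filled points where the unadjusted p was under 0.05. Intervals reach 1.16 to 4.55 log2 units to either side, and all but 6 cross 0.

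The intervals show how little these libraries limit the size of a difference. The 95% interval of the log2 fold change reached a median of 2.68 to either side, with a range of 1.16 to 4.55, beside a median of 2.54 over all tested genes. For 0 of 64 genes did it lie within a 2-fold difference in both directions, and for 4 of 64 within a 4-fold difference. Over all tested genes the same counts were 51 and 1717 of 11955. A missing call therefore does not show that a gene was at the same level in both groups.

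The median log2 fold change was -0.03 for the 37 tested large subunit genes and 0.08 for the 27 small subunit genes. The split followed the gene symbols, which do not always give the subunit that holds the protein. For example, mrps-18A was counted as small although its mammalian homolog sits in the large subunit. Other genes were not checked for this. Against the whole-body mean, the large subunit medians in anchor cell replicates 1, 2 and 3 were -0.48, -0.44 and 0.06. Those of the small subunit were -0.26, -0.56 and -1.43, so the order of the subunits differed between libraries. Over all tested genes the same medians were -0.14, -0.46 and -0.71. Over the 3425 tested genes in the group's middle range of whole-body level they were -0.31, -0.71 and -1.59. By limma voom the median log2 fold changes of the large and small subunit were -0.40 and -1.32. The median fold range in anchor cells was 2.91 and 6.74, with 6 of 37 and 9 of 27 genes over 10-fold, and in whole-body cells it was 1.43 and 1.64. The median whole-body level was 2.52 CPM for the large and 4.07 CPM for the small subunit genes, which bears on a range taken after adding 0.5 CPM, and the difference in range was not tested. The ratio of summed large subunit to summed small subunit counts was 0.934, 1.14 and 1.68 in the anchor cell libraries and 1.15, 1.16 and 1.09 in the whole-body libraries. The whole-body ratios lay between the lowest and the highest anchor cell ratio.

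Genes with and without a bacterial counterpart were split by the known families of the mammalian ribosome. Of the 41 tested genes with a counterpart, 24 lay above and 17 below 0, with a median of 0.09. Of the 23 found only in mitochondria, 7 lay above and 16 below, with a median of -0.32. This difference was not tested. The median SE of a single gene was 1.21.

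The DESeq2 and limma fits of the same libraries placed several of these genes past the threshold, all of them lower in anchor cells. DESeq2 called 7 of 60 genes with an adjusted p, mrpl-15, mrpl-35, mrpl-37, mrpl-41, mrpl-46, mrps-33 and mrps-35, and no gene as higher. Over all genes it called 10.6% lower and 5.37% higher. Limma voom called mrpl-15 and mrpl-46 lower, with 9.47% of all genes lower and 3.45% higher. Voom with sample weights called mrpl-41 lower, with 11% of all genes lower and 5.31% higher. The genes called lower made up 11.7%, 3.12% and 1.56% of the group in these fits, the first near and the others below the share of all genes.

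The RNA that mitochondrial ribosomes contain and translate behaved otherwise. The mitochondrial genome's protein genes all rose, 12 of 12 tested, with a median log2 fold change of 4.44. Their summed level was 313618, 109902 and 124052 CPM in anchor cells and 13643, 6451 and 8916 CPM in whole-body cells, and the groups did not overlap. The mean was 182524 ± 113751 against 9670 ± 3655 CPM (SD, n = 3 each), an 18.9-fold ratio beside the ratio of 1.13 for the ribosomal protein genes. The small ribosomal RNA of mitochondria, MTCE.7, rose by 3.78 on the log2 scale (edgeR adjusted p = 0.0121). The large one, MTCE.33, was higher by 2.04 (adjusted p = 0.0594) in all 3 anchor cell libraries.

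For each count on a mitochondrial ribosomal protein gene there were 991, 266 and 310 counts on mitochondrial protein genes in anchor cell replicates 1, 2 and 3. In whole-body replicates 1, 2 and 3 there were 44.0, 20.9 and 23.5. The lowest anchor cell ratio lay above the highest whole-body ratio, and since both counts come from 1 library, the scaling between libraries does not enter it.

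**Figure D4:**
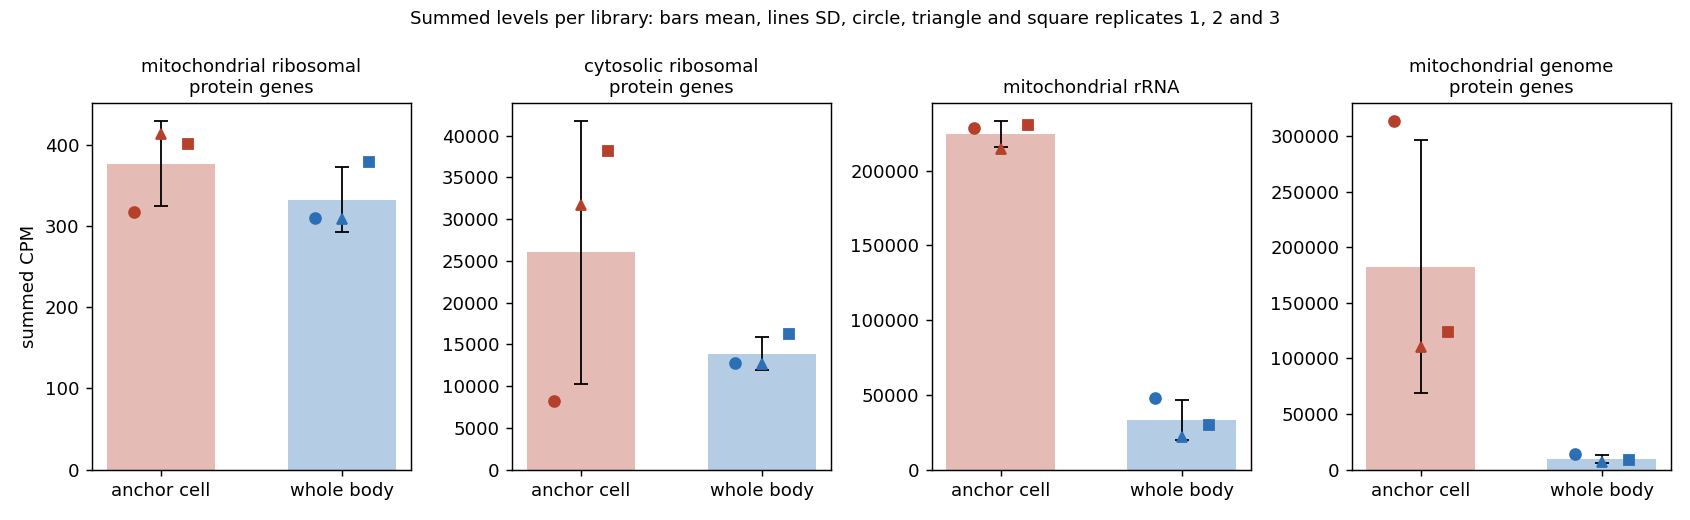
Summed CPM of 4 gene sets in each library, with bars for the mean, lines for the SD of 3 libraries, and circles, triangles and squares for replicates 1, 2 and 3, each panel on its own axis from 0. The groups overlap for ribosomal protein genes of mitochondria and of the cytosol, and do not overlap for mitochondrial rRNA and mitochondrial genome protein genes.

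Proteins of the cytosolic ribosome made up the other comparison set. Of 78 tested genes, 0 rose and 0 fell in edgeR, 28 had an unadjusted p under 0.05 on the higher side and 1 on the lower, and 77 lay above 0, with a median log2 fold change of 1.14. Their summed level was 8265, 31644 and 38206 CPM in anchor cells and 12796, 12665 and 16226 CPM in whole-body cells. Replicate 1 lay below the whole-body libraries and replicates 2 and 3 above them. The median of the log2 differences from the whole-body mean was 0.01, 1.3 and 1.68 in anchor cell replicates 1, 2 and 3. For the mitochondrial ribosomal protein genes the same medians were -0.44, -0.46 and -0.35, and over all tested genes -0.14, -0.46 and -0.71.

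Other nuclear genes of mitochondrial translation were read from the same fit. Of 11 elongation, initiation and release factors listed, 5 were found by name, and none passed in either direction, with a median of -0.38. Elongation factor gene gfm-1 had 33.3, 47.9 and 63.8 CPM in anchor cells and 106, 109 and 124 CPM in whole-body cells, without overlap (log2 fold change -1.22 ± 0.42, edgeR adjusted p = 0.104). The ribosome recycling factor gene mrrf-1 stood at 1.51 ± 1.64.

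Of 19 listed aminoacyl-tRNA synthetase genes that serve mitochondria, some of which also serve the cytosol, 16 were found by name and none passed. Their median was -1.11, with 4 above and 12 below 0. The gene vars-1 had 5.34, 0.972 and 5.68 CPM in anchor cells and 21.4, 22.5 and 21 CPM in whole-body cells, again without overlap (-2.43 ± 0.79, edgeR adjusted p = 0.0926). The smallest p on the higher side belonged to gars-1, with 38.3, 72.0 and 75.9 CPM against 51.3, 51.3 and 47 CPM, at 0.32 ± 0.44. Of 14 other listed ribosome proteins and assembly factors, 2 were found by name, and neither passed. The gene dap-3, a small subunit protein, stood at 0.16 ± 0.94 and oxa-1, which inserts newly made proteins into the inner membrane, at -2.26 ± 1.46. Both roles are known from yeast and mammals.

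**Figure D5:**
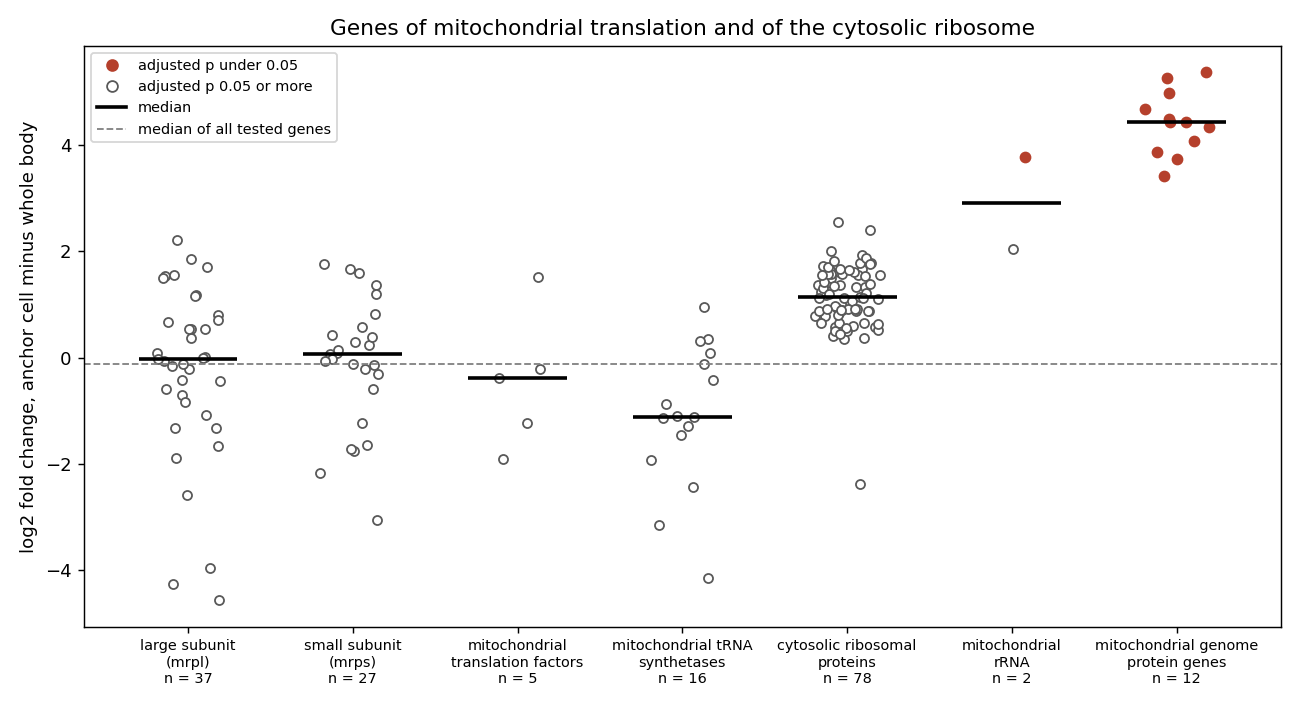
Log2 fold changes between anchor cell and whole-body libraries are plotted for each tested gene of 7 sets, with the median as a bar, the median of all tested genes (-0.12) as a dashed line and filled points for an edgeR adjusted p under 0.05. Filled points appear among mitochondrial genome protein genes (12 of 12) and mitochondrial rRNA genes (1 of 2), and in no other set.

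The genes were also placed in the genome with the Ensembl annotation of WBcel235, in which 65 of 66 were found by name. None lay on the X chromosome, which holds 13.6% of protein-coding genes, and 21 of 65 (32.3%) lay on chromosome III, which holds 13.1%. Many worm genes are transcribed together with a close neighbour in operons. A protein-coding neighbour on the same strand within 200 bp was found for 30 of 65 genes (46.2%), beside 16.4% of all 19235 protein-coding genes.

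Close neighbours did not often share their pattern in anchor cells. In 35 tested pairs of a mitochondrial ribosomal protein gene and a neighbour within 200 bp, 13 (37.1%) had their highest level in the same anchor cell library, beside 34.3% of 1116 such pairs over all genes. One pair of the group lies side by side on chromosome V, mrps-2 (8465686 to 8467159) and mrpl-4 (8467265 to 8468943), 105 bp apart. Both were highest in anchor cell replicate 3, mrps-2 at 23.3 and mrpl-4 at 4.14 CPM, against 0.870 to 1.11 and 0.716 to 1.15 CPM in replicates 1 and 2. On chromosome II, dap-3 and mrps-22 also lie 105 bp apart, and both were highest in anchor cell replicate 1. The rest of their pattern differed, at 6.37, 2.05 and 5.01 CPM for dap-3 and 4.82, 3.22 and 0.289 CPM for mrps-22. Both of these pairs are among the 13. Of 40 tested pairs of a group gene and a neighbour at least 2000 bp away, 14 (35%) shared their highest library.

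Some genes of the mitochondrial ribosome carry other names in the tables. The current names mrpl-44 and mrps-18.C belong to the rows F02A9.4 and T14B4.2, which stood at log2 fold changes of -1.15 ± 0.55 (edgeR adjusted p = 0.239) and 0.63 ± 0.60 (adjusted p = 0.577). They are not counted among the 66.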

How the data were processed

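Gene counts came from 3 anchor cell and 3 whole-body libraries. The authors deposited whole-number counts per gene without normalization. The tools named in the submitters' processing notes are STAR, HTSeq, Trim Galore, FastQC, DESeq2 1.30.1 and R 4.0.2, with build WBcel235. Strand setting, annotation release and the remaining versions were not given in the sources used here. Rows naming no gene were left out of totals and tests. Reads on no gene made up 0.807% to 3.88% of a library and ambiguous reads 0.303% to 0.677%.

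Genes kept by filterByExpr were scaled by TMM and tested with the robust quasi-likelihood test of edgeR 4.0.16 in R 4.3.3 on the group alone, and p-values were Benjamini-Hochberg adjusted over all 11955 genes. The SE is the log2 fold change divided by the square root of F. The step was tested on simulated data. DESeq2 1.42.0, limma 3.58.1, other scalings and filters, a replicate block, removal of rRNA and mitochondrially encoded genes and leaving out each library were alternatives. No library duplicated another, since the chi-square per degree of freedom within a group was at least 81.0. The labels give no batch.

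At this depth 3 counts correspond to 0.0483 to 0.153 TMM-scaled CPM. Reads carry no molecular identifiers, so floors and counting intervals cover counting error only. Lengths are exon lengths of Ensembl's WBcel235 annotation, which matched 98.5% of rows and may differ in release from the one used for counting. The gene mrpl-14 was not matched by name, and mrpl-3 is not analysed here.

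Genes were named by rule: every one at an unadjusted p under 0.05, the 4 highest and 4 lowest by level per kilobase, the 4 largest other log2 fold changes in each direction, 7 picked for textbook roles (mrpl-3 would be another), every one at 0 in a group, and the smallest p in each direction of other lists. Genes named for their fold range, shared neighbours or overlap between groups were chosen after their values were seen. The members and lists were chosen with earlier results of these data known.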

Additional observations from a re-analysis of the deposited data

How the results depend on the processing

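Under every alternative run, 0 mitochondrial ribosomal protein genes rose. The number that fell was 0 in edgeR fits of all 6 libraries, 7 by DESeq2, 2 by limma voom and 1 by voom with sample weights, and 0 to 2 when 1 library was left out, the 2 being mrpl-21 and mrps-24 without anchor cell replicate 1. Over all genes, the counts that rose and fell were 98 and 372 with library totals alone, 798 and 1580 by DESeq2, 412 and 1132 by voom, 635 and 1311 with sample weights and 603 and 372 with no filter. A filter at 10 CPM, reached in 3 libraries or more, gave 197 that fell. Leaving out a library gave 31 to 966 that rose and 7 to 1156 that fell. Omitting anchor cell replicate 1 gave 966 and 1156, omitting replicate 2 gave 102 and 50, and omitting whole-body replicates 1, 2 and 3 gave 80 and 28, 106 and 26, and 31 and 7. At an unadjusted p under 0.05, genes of the group that were higher numbered 0 under upper-quartile scaling, library totals, voom, no filter and the 10 CPM filter, 2 by DESeq2, and 0 to 3 with a library left out. Those lower numbered 9 with library totals, 8 by DESeq2, 9 by voom, 9 with sample weights, 2 of 16 under the 10 CPM filter, and 1 to 12 with a library left out, namely 12 and 9 when anchor cell replicate 1 or 2 was omitted and 1 without each whole-body library.

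The group's median log2 fold change was -0.23 under upper-quartile scaling, -0.84 with totals, -0.51 by voom, -0.56 with sample weights, -0.12 under the 10 CPM filter and -0.17 to 0.088 with a library left out. For the large subunit it was -0.87 with totals, -0.40 by voom, -0.59 with sample weights and 0.39 under the 10 CPM filter, and for the small subunit -0.79 with totals and -1.32 by voom. With the replicate number as a block, 390 genes rose and 338 fell, 0 of the group rose or fell, 0 were higher and 1 lower before adjustment, and the medians were -0.45, -0.41 and -0.61 for the group, the large and the small subunit. Deviations of same-numbered libraries from their group means had r of 0.04, -0.05 and -0.03. These values gave no sign that the numbers pair the libraries, but with so few libraries they cannot exclude it. Some named genes, none of them called with all 6 libraries, changed direction. With totals, mrpl-10 stood at -0.094, mrpl-30 at -0.23, mrps-21 at -0.75, mrps-5 at -0.55, mrpl-12 at -0.16, mrps-7 at -0.35 and mrpl-2 at -0.41. By voom, mrps-21 stood at -0.21, mrpl-21 at -2.41, mrps-5 at -0.51, mrpl-12 at -0.15 and mrpl-2 at -1.42. With sample weights, mrps-28 stood at 0.089, mrps-21 at -0.33, mrpl-17 at -0.31, mrpl-21 at -3.23, mrps-5 at -0.84, mrpl-12 at -0.60, mrps-7 at -0.14 and mrpl-2 at -0.33. With the block, mrps-21 stood at -0.17, mrpl-21 at -3.58, mrps-5 at -0.61, mrpl-12 at -0.34 and mrpl-2 at -0.67. Upper-quartile scaling put mrps-21 at -0.15, and removing rRNA and mitochondrially encoded genes put mrps-28 at 0.011. With a library left out, ranges that crossed 0 were -0.16 to 1.04 for mrpl-30, -0.77 to 0.35 for mrps-28, -0.51 to 0.59 for mrps-21, -0.66 to 2.75 for mrpl-20, -0.18 to 2.43 for mrpl-17, -7.84 to 2.29 for mrpl-21, -1.53 to 0.61 for mrps-5, -1.56 to 1.25 for mrpl-12, -0.17 to 2.06 for mrpl-11, -0.77 to 0.99 for mrps-7 and -0.42 to 1.12 for mrpl-2. The causes were not tested. Of the values of named genes under an alternative, 313 kept their direction and side of the threshold, 44 changed direction and 9 kept their direction and passed the threshold. One of the 44, mrpl-21 without anchor cell replicate 1, also passed it, in the opposite direction. The lowest genes had few counts in anchor cells, which limits their precision.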
